A study of Oryctolagus cuniculus with 20 samples.

Results

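ZNHIT6, RIOK1 and WDR36 encode factors that help to build ribosomes and are not part of the finished particle. These 3 genes, of 23669 in the count table and 8683 that were tested, were selected on measured values: the study listed them as changed in tricuspid valves by both pergolide and dexfenfluramine against non-treated rabbits. Their values under either drug are therefore given as a description without a p-value. The same holds for serotonin against non-treated valves, because the list that names them leaves out genes changed by serotonin, and for each drug against serotonin or against the other drug, because the drug valves are those that chose the genes. All 3 genes passed the filter on low counts.

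RNA of the tricuspid valve was sequenced from 20 female New Zealand white rabbits, 8 weeks old at the start, with 5 rabbits in each of 4 groups. For 16 weeks the drinking water of the treated rabbits held serotonin at 80 mg/kg per day, the ergot derivative pergolide at 0.5 mg/kg per day or the anorectic dexfenfluramine at 20 mg/kg per day, and the non-treated rabbits received water. For dexfenfluramine, the labels and the methods give this dose, and the study's results text gives a lower one. The counts of a valve added up to between 3247091 and 5921025, and each of the 3 genes had from 49 to 254 of them.

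Ribosomal RNA is made in the nucleolus by RNA polymerase I as a long precursor, which is folded, chemically modified and cut while ribosomal proteins join it. Small nucleolar RNAs (snoRNAs) of the box C/D class guide methylation of the precursor, and those of the box H/ACA class guide its pseudouridylation. ZNHIT6, also known as BCD1, is needed to assemble box C/D snoRNAs with their proteins, together with RUVBL1, RUVBL2 and RPAP3. WDR36 belongs to UTP-B, a subcomplex of the small subunit processome that binds the nascent precursor. RIOK1 is an atypical protein kinase that acts late, in the cytoplasm, on the precursor of the small ribosomal subunit, and it also binds the arginine methyltransferase PRMT5.

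Markers of the valve and of neighbouring tissue were read first, from the genes that have a symbol. Symbols came from the study's own list of changed genes, so each list is read only in part and its direction is not independent evidence. Of 10 markers of valvular interstitial cells, the main cell type of the leaflets, 7 could be read, and VIM was the most abundant at 2792 ± 688 CPM (counts relative to the scaled total of a valve; SD, n = 5) in non-treated valves. No marker with a symbol was at 0. The summed interstitial markers were 6836, 6110, 7519, 5069 and 5490 CPM in the non-treated valves, 7131, 5660, 7534, 6918 and 7004 CPM after serotonin, 7259, 8091, 6886, 8758 and 10440 CPM after pergolide and 8437, 9139, 10780, 7627 and 8483 CPM after dexfenfluramine. Every dexfenfluramine valve was above every non-treated valve, and 5 of the 7 genes rose with pergolide and 4 with dexfenfluramine. Of tested genes with a symbol, 28.1% rose and 28.6% fell with pergolide and 31.8% and 34.3% with dexfenfluramine, and of all tested genes 12.1% and 12.7%, and 13.5% and 15.4%. These shares stand beside each count of markers.

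Of 13 cardiomyocyte markers, 8 could be read, and their most abundant gene was TTN at 74730 ± 27150 CPM (SD, n = 5) in non-treated valves. Their sum was 140600, 105500, 48960, 149900 and 96300 CPM in the non-treated valves, 52930, 103300, 59670, 96490 and 63170 CPM after serotonin, 81540, 91380, 91540, 52190 and 47550 CPM after pergolide and 70250, 52000, 12380, 59910 and 70580 CPM after dexfenfluramine. The groups overlapped in this sum, non-treated replicate 3 was the lowest of its group, and dexfenfluramine replicate 3 was the lowest of all. Of the 8 genes, 1 fell with pergolide and 3 with dexfenfluramine, against 28.6% and 34.3% of tested genes with a symbol. At an unadjusted p under 0.05 in edgeR, 4 and 6 of the 8 were lower and 0 higher. Of 3454 tested genes with a symbol, 2599 and 2893 had such a p in either direction. All 8 were below 0 for serotonin, pergolide and dexfenfluramine, with median log2 fold changes of -0.53, -0.64 and -1.12, though 1, 4 and 1 of them were above 0 with total counts as library sizes. TNNT2, singled out after its values were seen, fell without overlap with pergolide (-2.27, edgeR adjusted p = 0.00109) and dexfenfluramine (-2.79, edgeR adjusted p = 0.000191). In bulk valves, fewer cells of a type and less RNA per cell cannot be told apart.

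Of 8 adipocyte markers, 3 could be read, led by ADIPOQ, and their sum was 33.9, 21.9, 24.2, 70.0 and 29.0 CPM in the non-treated valves, 133.0, 28.5, 79.2, 58.2 and 67.4 CPM after serotonin, 176.2, 169.0, 97.6, 55.6 and 115.1 CPM after pergolide and 57.7, 93.6, 3.24, 32.4 and 100.2 CPM after dexfenfluramine. All 3 rose with pergolide, although the sums of the pergolide and non-treated valves overlapped. None was called for serotonin or dexfenfluramine by edgeR, against 2 and 1 at an unadjusted p under 0.05. Of 8 endothelial markers, 2 could be read, led by PECAM1, and their sum was 256.8, 314.3, 322.1, 134.7 and 303.3 CPM in the non-treated valves, 259.3, 325.4, 336.3, 276.7 and 284.5 CPM after serotonin, 216.5, 149.3, 117.4, 194.0 and 148.0 CPM after pergolide and 170.4, 204.7, 264.0, 201.1 and 231.6 CPM after dexfenfluramine. Both fell with pergolide, each with overlapping valves. Of 5 smooth muscle markers 3 could be read, led by DES, with group means of their sum from 315.1 to 427.8 CPM. The sum is mostly DES, while TAGLN rose with pergolide (log2 fold change 0.99, edgeR adjusted p = 0.0475) and dexfenfluramine (1.36, edgeR adjusted p = 0.00628) and MYH11 fell with dexfenfluramine (-1.41, edgeR adjusted p = 0.00599). Of 5 Schwann cell markers 2 could be read, led by S100B, with means of the sum from 23.5 to 29.4 CPM, and S100B fell with pergolide (-0.94, edgeR adjusted p = 0.0334). The valves overlapped in these calls of TAGLN, MYH11 and S100B, and TAGLN, MYH11 and the call of S100B were singled out after their values were seen. With 1 of the 10 valves compared removed, TAGLN for pergolide passed in 2 of 10 fits, those without non-treated replicate 5 or pergolide replicate 2 (0.84 to 1.16 over the 10). S100B did not pass without non-treated replicate 1 (-0.66) or 4 (-0.93) or pergolide replicate 1 (-0.91), 2 (-0.84) or 5 (-0.88). Macrophage, chondrocyte, cycling cell and erythroid markers had no symbol and were not analysed here. The part of these cell types in the values of ZNHIT6, RIOK1 and WDR36 was not tested.

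The valves also differed in how their counts were spread over genes. ENSOCUG00000029084, the gene with the most counts, made up 40.7% ± 7.39 of them in the non-treated group. Its share was 35.9% ± 4.07 with serotonin, 32.9% ± 2.13 with pergolide and 29.1% ± 5.65 with dexfenfluramine (SD, n = 5 each). Levels are therefore given as CPM scaled by TMM, which sets the valves to each other by the bulk of the genes. Under TMM, the median log2 fold change of all tested genes against non-treated valves was 0.01 for serotonin, 0.02 for pergolide and 0.03 for dexfenfluramine. With total counts as library sizes, an alternative added after the data were seen, these medians were 0.13, 0.46 and 0.70, so that fold changes below are relative to the bulk of the genes. Of all tested genes, 2288 were called higher and 87 lower for pergolide on that scale, against 1052 and 1105 with TMM, and 4983 higher and 118 lower for dexfenfluramine, against 1175 and 1335.

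ZNHIT6 (ENSOCUG00000003910), the box C/D assembly factor, was at 35.0, 31.2, 27.7, 32.6 and 26.0 CPM in the non-treated valves, a mean of 30.5 ± 3.64 (SD, n = 5). After serotonin ZNHIT6 was at 39.6, 48.7, 26.9, 30.03 and 32.6 CPM, a mean of 35.6 ± 8.73 (SD, n = 5). The drug valves were lower, with ZNHIT6 at 11.7, 11.6, 18.5, 13.2 and 13.2 CPM after pergolide and at 15.7, 12.6, 16.6, 13.1 and 16.2 CPM after dexfenfluramine, means of 13.6 ± 2.85 and 14.8 ± 1.86 (SD, n = 5 each). The levels were ordered serotonin, non-treated, dexfenfluramine, pergolide, and the first pair and the last pair of this order overlapped. No drug valve reached the lowest non-treated or serotonin valve, and pergolide replicate 3 was the highest of the 10 drug valves. The log2 fold change of ZNHIT6 against non-treated valves was 0.23 ± 0.15 (SE) for serotonin, -1.16 ± 0.16 (SE) for pergolide and -1.03 ± 0.16 (SE) for dexfenfluramine.

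RIOK1 (ENSOCUG00000011824), the late-acting kinase, was at 49.4, 27.4, 40.03, 39.7 and 35.7 CPM in the non-treated valves, a mean of 38.4 ± 7.98 (SD, n = 5). After serotonin RIOK1 was at 35.6, 40.8, 44.4, 50.1 and 53.4 CPM, a mean of 44.9 ± 7.10 (SD, n = 5). These groups overlapped over most of their range. After pergolide RIOK1 was at 21.8, 22.04, 21.9, 20.9 and 24.0 CPM, and after dexfenfluramine at 20.4, 23.1, 25.2, 23.9 and 22.3 CPM, means of 22.1 ± 1.13 and 23.0 ± 1.78 (SD, n = 5 each). The order was again serotonin, non-treated, dexfenfluramine, pergolide, and the drug groups overlapped each other. The gap to the other groups was small, since dexfenfluramine replicate 3 at 25.2 CPM lay just under non-treated replicate 2 at 27.4 CPM. The log2 fold change of RIOK1 against non-treated valves was 0.23 ± 0.13 (SE) for serotonin, -0.79 ± 0.13 (SE) for pergolide and -0.74 ± 0.13 (SE) for dexfenfluramine.

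WDR36 (ENSOCUG00000003129), the UTP-B subunit, went the other way. WDR36 was at 17.7, 25.2, 24.4, 23.8 and 26.7 CPM in the non-treated valves, a mean of 23.6 ± 3.46 (SD, n = 5), and at 24.9, 21.8, 26.6, 27.9 and 25.8 CPM after serotonin, a mean of 25.4 ± 2.28 (SD, n = 5). After pergolide it was at 32.6, 37.2, 35.6, 38.0 and 32.5 CPM, and after dexfenfluramine at 33.4, 36.7, 37.3, 37.8 and 40.7 CPM, means of 35.2 ± 2.55 and 37.2 ± 2.64 (SD, n = 5 each). The order was dexfenfluramine, pergolide, serotonin, non-treated, with overlap within the first pair and within the last pair, and the lowest drug valve stood above the highest of the other 10. The log2 fold change of WDR36 against non-treated valves was 0.10 ± 0.10 (SE) for serotonin, 0.57 ± 0.10 (SE) for pergolide and 0.65 ± 0.10 (SE) for dexfenfluramine.

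**Figure D1:**
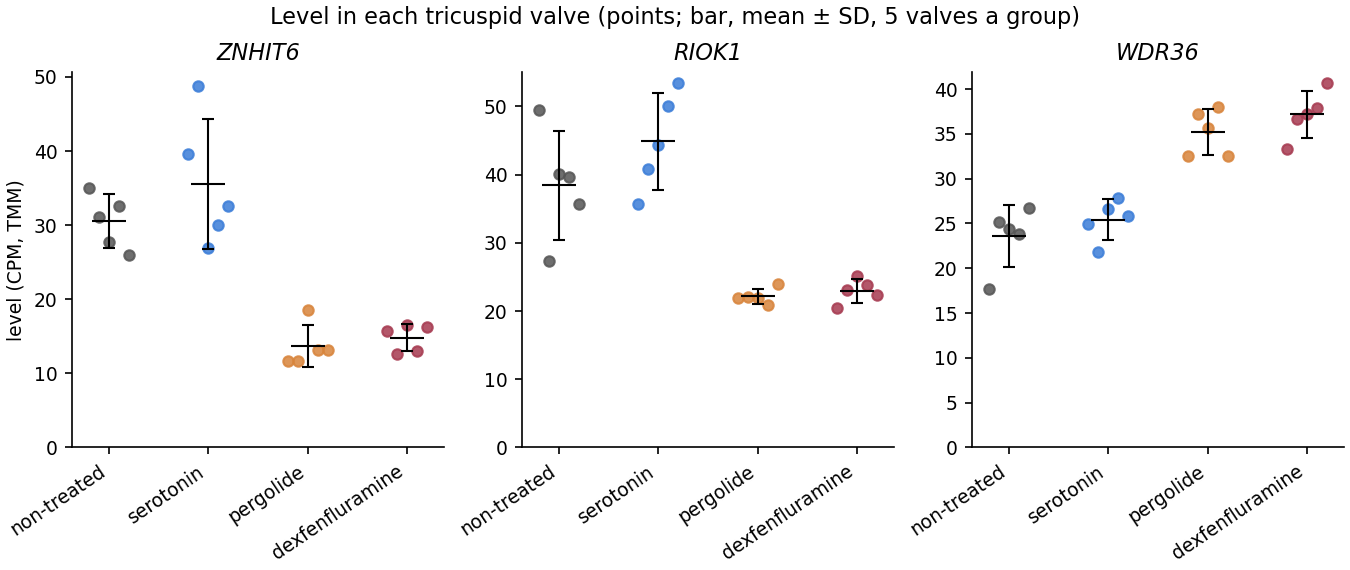
Level of ZNHIT6, RIOK1 and WDR36 in CPM (TMM, vertical axis from 0) in each of the 20 tricuspid valves, by treatment group; points are valves, and bars give the mean and SD of 5. For ZNHIT6 and RIOK1 the 10 drug valves lie under the other 10, up to 18.5 and 25.2 CPM, and for WDR36 they lie above them, from 32.5 CPM.

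Under TMM, all 3 genes were thus without overlap between the 10 drug valves and the 10 others, as were 7.53% of all tested genes and 17.0% of the tested genes with a symbol. For pergolide against non-treated valves the 3 genes did not overlap, against 16.3% of all tested genes, and for dexfenfluramine they did not overlap, against 17.0%. For serotonin 0 of the 3 were without overlap, against 2.66% of all tested genes. The genes were selected on these contrasts, so nothing is read from these counts. Against serotonin valves, with the same drug valves, the log2 fold change of ZNHIT6 was -1.38 ± 0.16 (SE) for pergolide and -1.26 ± 0.16 (SE) for dexfenfluramine. RIOK1 stood at -1.02 ± 0.13 (SE) and -0.96 ± 0.13 (SE), and WDR36 at 0.47 ± 0.10 (SE) and 0.55 ± 0.10 (SE), in the same order.

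The size of these changes depended on the scale. With total counts, the log2 fold change of ZNHIT6 was -0.70 for pergolide and -0.34 for dexfenfluramine, that of RIOK1 -0.34 and -0.05, and that of WDR36 1.00 and 1.31. No sign turned, but on this scale RIOK1 was at 30.3 ± 7.87 CPM of total counts (SD, n = 5) after dexfenfluramine and at 31.2 ± 11.2 (SD, n = 5) in non-treated valves, with full overlap. RIOK1 also overlapped for pergolide (21.69 to 30.11 against 22.48 to 49.85), and ZNHIT6 for dexfenfluramine (16.05 to 28.33 against 19.03 to 34.54). ZNHIT6 for pergolide and WDR36 for both drugs did not overlap with the non-treated valves. Relative to the median of all tested genes on that scale, ZNHIT6 was at -1.16 and -1.04, RIOK1 at -0.80 and -0.74 and WDR36 at 0.54 and 0.61, where under TMM these were -1.18 and -1.07, -0.81 and -0.77, and 0.55 and 0.62. Relative to the bulk of the genes, ZNHIT6 and RIOK1 lay below it and WDR36 above it for both drugs under each of the 5 scalings. A scaling moves all genes of a valve alike, so subtracting the median removes most of the difference between scalings. This agreement was therefore built in and supports nothing.

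**Figure D2:**
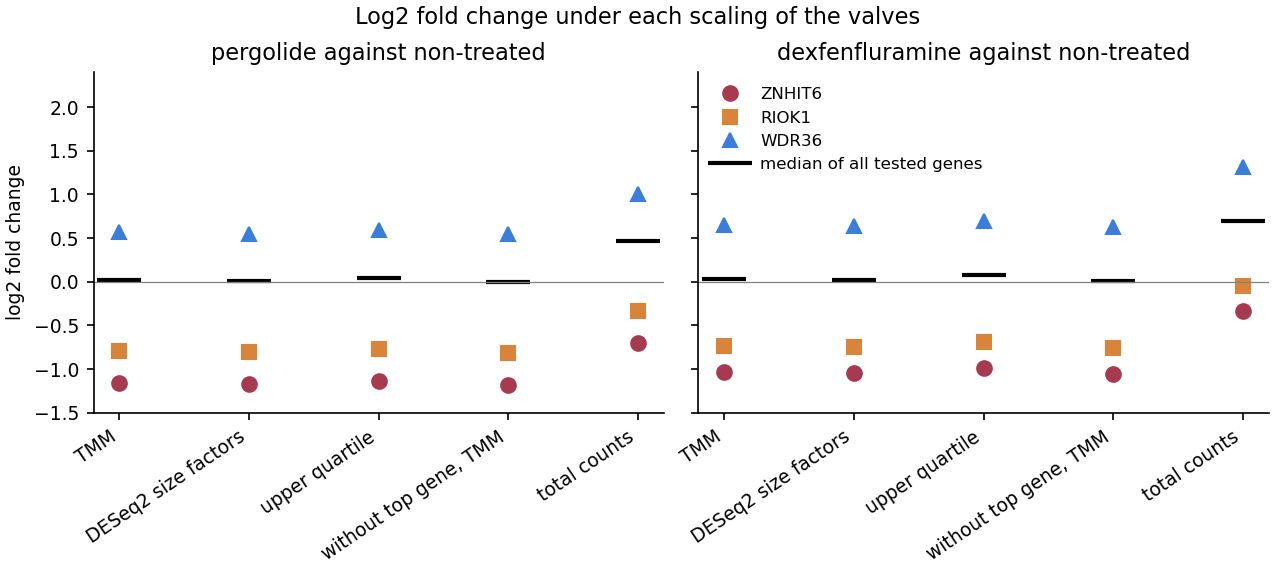
Log2 fold change (vertical axis) of ZNHIT6, RIOK1 and WDR36 for each drug against non-treated valves under 5 ways of scaling the valves, with the median of all tested genes as a black bar. With total counts, the bar stands at 0.46 for pergolide and 0.70 for dexfenfluramine, and the 3 genes shift with it.

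A ratio of 2 genes within a valve needs no scaling. These ratios were chosen after the data were seen, and as gene length is not used they are read only between valves, not as which gene is more abundant. The ratio of WDR36 to ZNHIT6 counts was 0.505, 0.809, 0.88, 0.73 and 1.03 in the non-treated valves and 0.629, 0.448, 0.989, 0.929 and 0.793 after serotonin. After pergolide it was 2.79, 3.21, 1.92, 2.88 and 2.47, and after dexfenfluramine 2.12, 2.92, 2.25, 2.90 and 2.52. The group means were 0.79 ± 0.193 (non-treated), 0.758 ± 0.222 (serotonin), 2.65 ± 0.486 (pergolide) and 2.54 ± 0.364 (dexfenfluramine; SD, n = 5 each). Every drug valve was above every other valve on this ratio, whatever its library size. Under TMM every drug valve was already lower in ZNHIT6 and higher in WDR36 than every other valve. The separation of the ratio follows from that, so it was built in and supports nothing.

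The ratio of WDR36 to RIOK1 counts was 0.358, 0.921, 0.61, 0.60 and 0.748 in the non-treated valves and 0.699, 0.535, 0.599, 0.556 and 0.484 after serotonin. It was 1.49, 1.69, 1.62, 1.81 and 1.36 after pergolide and 1.63, 1.59, 1.48, 1.59 and 1.83 after dexfenfluramine, again without overlap. This separation likewise follows from the levels of RIOK1 and WDR36 given above. The ratio of RIOK1 to ZNHIT6, the 2 genes that were lower, had group means of 1.26 ± 0.233 (non-treated), 1.34 ± 0.43 (serotonin), 1.67 ± 0.30 (pergolide) and 1.57 ± 0.25 (dexfenfluramine; SD, n = 5 each), and all 4 groups overlapped.

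**Figure D3:**
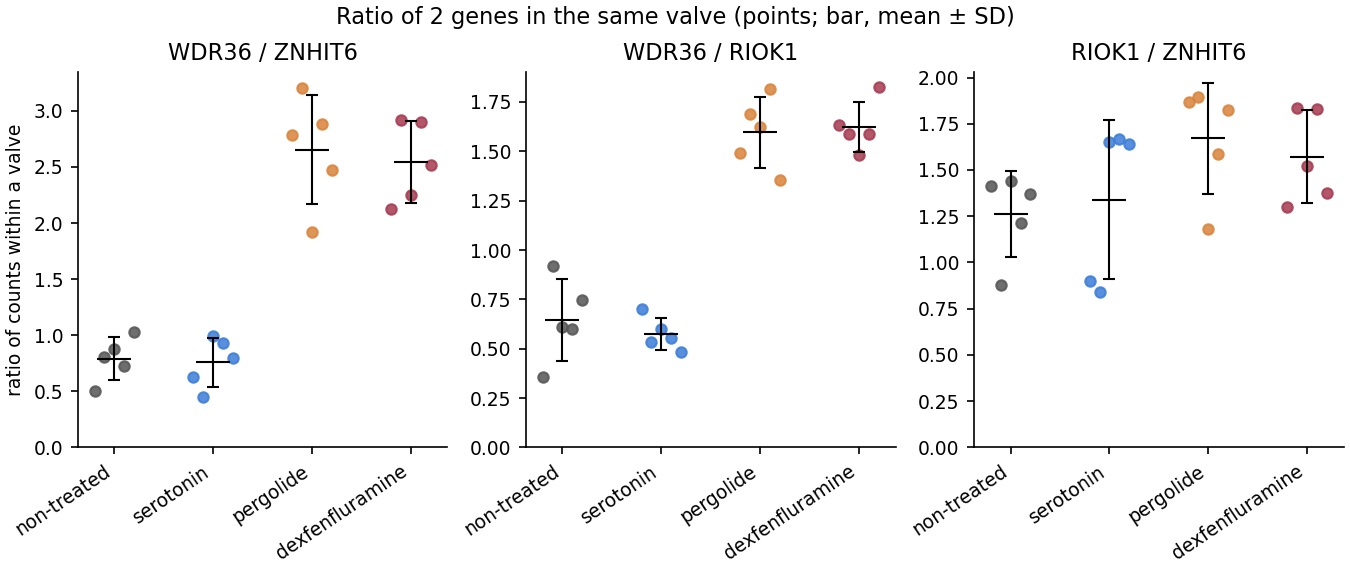
Ratio of the counts of 2 genes within each valve (vertical axis from 0), by treatment group; points are valves, and bars give the mean and SD of 5. The ratios of WDR36 to ZNHIT6 and to RIOK1 separate the drug valves from the others, from 1.92 and 1.36 upward, which follows from the levels of the genes. The ratio of RIOK1 to ZNHIT6 overlaps in all groups.

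Between the drugs the values are again a description, since the requirement that both drugs pass favours genes that are alike in both, and the drugs were given at different doses. In dexfenfluramine against pergolide valves the log2 difference of ZNHIT6 was 0.12 ± 0.16 (SE; 95% interval -0.22 to 0.47). That of RIOK1 was 0.05 ± 0.13 (SE; -0.22 to 0.33) and that of WDR36 0.08 ± 0.10 (SE; -0.12 to 0.28), and the valves of the drugs overlapped for each gene. The intervals take the SE and a t quantile with 16 degrees of freedom. They make no allowance for the choice of the genes and are not read as a test. Over all tested genes, edgeR's quasi-likelihood test with Benjamini-Hochberg adjustment called 0.0% between the drugs, with 613 of 8683 at an unadjusted p under 0.05; DESeq2 called 4, limma-voom 0 and edgeR with 1 RUVr factor 136.

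Whether the genes vary together between valves of the same group was not used to choose them, and it was tested. After subtracting group means, log2 CPM of ZNHIT6 and WDR36 had Pearson's r = -0.45 over 20 valves (permutation p = 0.0443, adjusted over the 3 pairs 0.133) and Spearman's rho = -0.46 (permutation p = 0.0589, adjusted 0.177). Without the 2 valves farthest from the median of ZNHIT6, r was -0.41. ZNHIT6 and RIOK1 had r = -0.14 (permutation p = 0.585, adjusted 0.585) and rho = -0.16 (permutation p = 0.547, adjusted 0.741), with r = -0.06 without the 2 farthest valves. RIOK1 and WDR36 had r = -0.30 (permutation p = 0.378, adjusted 0.567) and rho = -0.09 (permutation p = 0.741, adjusted 0.741), and r = 0.22 without the 2 farthest valves. All tests were two-sided, and no pair passed after adjustment with all 20 valves. Without pergolide replicate 3 alone, r of ZNHIT6 and WDR36 was -0.54 and passed, and without non-treated replicate 1 alone, r of RIOK1 and WDR36 turned to 0.16. Every sign turned with total counts, with r = 0.51, 0.48 and 0.68 for these pairs in the order given, of which the last passed after adjustment, so no direction is read from them. The labels name no batch within which these could be recomputed.

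The genes with the most similar pattern within groups were taken among 3417 others with a symbol, by Pearson's r of log2 CPM over the 20 valves after subtracting group means, as a description. The highest r among so many genes are large by choice, so no link is read from them. For ZNHIT6 they were SNORD45 (r = 0.82), ARID4A (r = 0.81), PPIG (r = 0.75), FAM177A1 (r = 0.74) and SNORA7 (r = 0.74), which include a snoRNA of each class. For RIOK1 they were LRRC59 (r = 0.82), SEMA3D (r = 0.77), HNRNPA3 (r = 0.71), SERPINF1 (r = 0.71) and TRPC4AP (r = 0.70). Their log2 fold changes with pergolide went both ways. LRRC59 (-0.46) and HNRNPA3 (-0.80) were below 0 like RIOK1, and SEMA3D (0.46), SERPINF1 (0.88) and TRPC4AP (0.50) above 0. For WDR36 they were RPL10 (r = 0.76), MYRIP (r = 0.74), LMBRD1 (r = 0.73), MFAP3 (r = 0.71) and PYGO1 (r = 0.71), of which RPL10 encodes a ribosomal protein. With pergolide RPL10 (0.25), LMBRD1 (0.25) and MFAP3 (0.38) were above 0 like WDR36, and MYRIP (-0.71) and PYGO1 (-0.78) below 0. The r values of similar genes are given under TMM only. None of these 15 genes is among the ribosome assembly genes listed here.

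The wider pathway was read from 196 other ribosome assembly genes, of which 53 had a symbol and 52 were tested. Since symbols exist for genes that the study listed as changed in at least 1 comparison, the calls are set beside those of the 3454 tested genes with a symbol as well as of all tested genes, and they are not independent evidence of a direction. For pergolide 27 of the 52 fell, against 28.6% of tested genes with a symbol and 12.7% of all tested genes, and 11 rose, against 28.1% and 12.1%. For dexfenfluramine 32 fell, against 34.3% and 15.4%, and 8 rose, against 31.8% and 13.5%. Their median log2 fold change was -0.38 for pergolide and -0.44 for dexfenfluramine, where the median was 0.02 and -0.01 over tested genes with a symbol. With total counts none of the 52 was called lower by edgeR for either drug, with 2 and 0 at an unadjusted p under 0.05, where 87 and 118 of all tested genes were called lower. The medians of the 52 turned to 0.07 and 0.24, which is -0.39 and -0.46 relative to the median of all tested genes. Falls and rises of list genes below are thus relative to the bulk of the genes.

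For serotonin 3 of the 52 rose, against 1.48% of tested genes with a symbol and 1.04% of all tested genes, and 0 fell, against 0.145% and 0.15%, with edgeR. At an unadjusted p under 0.05 these counts were 13 and 1, and DESeq2 called 5 and 0. The count of rises was 0 in edgeR with total counts, with the replicate number as a block and with the 2 groups fitted alone (7, 9 and 9 unadjusted). It ran from 0 to 6 when 1 valve was removed, so the count is not stable. The median log2 fold change was 0.14, against 0.03 for tested genes with a symbol. Against serotonin valves, 32 fell and 7 rose with pergolide, against 25.9% and 21.9% of tested genes with a symbol. With dexfenfluramine 31 fell and 7 rose, against 28.6% and 25.1%. Of all 8683 tested genes, 1312 fell and 1077 rose with pergolide against serotonin valves, and 1424 fell and 1207 rose with dexfenfluramine. Between the drugs edgeR called 0 of the 52, with 2 at an unadjusted p under 0.05, and DESeq2 and limma-voom called 0. All treatments share the non-treated valves, so the counts are not compared with one another. Without overlap between the drug valves and the 10 others were 19 of the 52, 17 of them lower and 2 higher under the drugs, against 17.0% of tested genes with a symbol and 7.53% of all tested genes.

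Among the 52 and the 3 selected genes together, counted from the lowest log2 fold change, ZNHIT6 was number 1 for pergolide and number 2 for dexfenfluramine, RIOK1 number 7 and number 9, and WDR36 number 49 and number 51. The 3 genes were selected on these contrasts, so that their ranks are a description and support nothing.

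Of the genes that work with ZNHIT6 on box C/D snoRNAs, 2 others were tested. RPAP3, a subunit of the co-chaperone complex, fell from 52.2 ± 7.14 CPM to 37.4 ± 1.81 after pergolide (log2 fold change -0.48, edgeR adjusted p = 0.00543) and to 33.3 ± 3.52 after dexfenfluramine (-0.65, edgeR adjusted p = 0.000453; SD, n = 5 each), with no overlap with the non-treated valves, and turned to 0.02 for dexfenfluramine with total counts. RUVBL1, an ATPase of the same complex, fell with dexfenfluramine (-0.78, edgeR adjusted p = 0.0444) with overlapping valves, and stood at -0.49 for pergolide (edgeR adjusted p = 0.219), which turned to 0.07 with total counts. Of the box H/ACA proteins 2 were tested, and GAR1 fell with pergolide (-1.08, edgeR adjusted p = 0.000742) and with dexfenfluramine (-0.88, edgeR adjusted p = 0.00302).

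The snoRNAs themselves were read from 18 tested SNORD rows of 29 with a symbol and 11 tested SNORA rows of 13. Of the SNORD rows, which are mostly box C/D, 16 fell and 1 rose with pergolide and 15 fell and 1 rose with dexfenfluramine, with median log2 fold changes of -1.51 and -1.35. Of tested genes with a symbol, 28.6% fell and 28.1% rose with pergolide and 34.3% and 31.8% with dexfenfluramine, and of all tested genes 12.7% and 12.1%, and 15.4% and 13.5%. These shares also stand beside the counts of SNORA rows and of each list below. For serotonin 0 were called by edgeR, and 0 had an unadjusted p under 0.05. With total counts 17 of the 18 stayed below 0 for each drug, and 7 and 6 were called lower, against 87 and 118 of all 8683 tested genes. SNORD47 fell from 3.20 ± 1.52 CPM to 0.377 ± 0.163 after pergolide (edgeR adjusted p = 0.00365) and 0.776 ± 0.541 after dexfenfluramine (edgeR adjusted p = 0.0199; SD, n = 5 each), a few counts per valve, so the size of its fall is uncertain. SNORD2 was the row that rose, by 0.99 with pergolide (edgeR adjusted p = 0.00293) and 0.92 with dexfenfluramine (edgeR adjusted p = 0.00433).

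The SNORA rows, which are mostly box H/ACA, did not share that direction. With each drug 6 of the 11 rose and 2 fell, with medians of 1.04 and 0.97, and with serotonin 1 fell. With total counts edgeR called 8 higher and 0 lower for each drug (1 lower unadjusted for each) and 0 for serotonin (1 higher and 1 lower unadjusted), with 3 of the 11 below 0 for each drug on both scales. Of all 8683 tested genes, 2288 were called higher and 87 lower for pergolide with total counts, and 4983 and 118 for dexfenfluramine. The row called for serotonin, SNORA68, fell with serotonin (-1.29, edgeR adjusted p = 0.0321) and rose with dexfenfluramine (0.62, edgeR adjusted p = 0.0489). SNORA74 rose from 0.502 ± 0.453 CPM, where few or no reads fell on it, to 3.65 ± 1.26 after pergolide (edgeR adjusted p = 0.000168) and 4.33 ± 0.855 after dexfenfluramine (edgeR adjusted p = 5.54e-05; SD, n = 5 each), so the size of its rise is uncertain. SNORD47, SNORD2, SNORA68 and SNORA74 were singled out after their values were seen. SnoRNAs mostly lie in introns of other genes and have near copies, so reads of a host gene or of a copy cannot be told apart from theirs in these counts. Whether the SNORD rows and ZNHIT6 are linked was not tested.

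For both drugs, relative to the bulk of the genes, WDR36 stood above and the other tested UTP-B genes below, under TMM and with total counts. UTP18 fell from 16.2 ± 3.52 CPM to 11.1 ± 1.25 after pergolide (log2 fold change -0.52, edgeR adjusted p = 0.0282) and to 10.9 ± 2.096 after dexfenfluramine (-0.56, edgeR adjusted p = 0.018; SD, n = 5 each), and turned to 0.15 for dexfenfluramine with total counts. UTP6 fell with dexfenfluramine (-0.48, edgeR adjusted p = 0.0146), was at -0.32 for pergolide (edgeR adjusted p = 0.0981), and turned to 0.23 and 0.17 with total counts. WDR36 was at 0.57 and 0.65 in the same valves. Of 12 other tested processome genes, 8 fell and 2 rose with pergolide and 7 fell and 1 rose with dexfenfluramine. AATF fell with pergolide (-0.80, edgeR adjusted p = 5.78e-05) and dexfenfluramine (-0.72, edgeR adjusted p = 0.000147), and UTP4 rose with pergolide (0.49, edgeR adjusted p = 0.0151) and dexfenfluramine (0.46, edgeR adjusted p = 0.0193). ESF1 rose with serotonin (0.53, edgeR adjusted p = 0.0285) and fell with pergolide (-0.58, edgeR adjusted p = 0.000354) and dexfenfluramine (-0.64, edgeR adjusted p = 0.000117; 0.01 with total counts).

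The tested genes that share late small subunit maturation with RIOK1 fell with it. RIOK3, a kinase of the same family, fell from 55.5 ± 4.35 CPM to 39.0 ± 2.73 after pergolide (log2 fold change -0.51, edgeR adjusted p = 0.000193) and to 37.3 ± 3.14 after dexfenfluramine (-0.57, edgeR adjusted p = 5.75e-05; SD, n = 5 each), with no overlap, and turned to 0.11 for dexfenfluramine with total counts. TSR1 fell with pergolide (-0.47, edgeR adjusted p = 0.00145) and dexfenfluramine (-0.55, edgeR adjusted p = 0.000368), and turned to 0.15 for dexfenfluramine with total counts. TSR2 fell with pergolide (-0.64, edgeR adjusted p = 0.0371) and dexfenfluramine (-1.05, edgeR adjusted p = 0.00154). WDR77, the partner of PRMT5 and the gene of the PRMT5 complex that was tested, rose from 6.95 ± 1.26 CPM to 12.1 ± 1.63 after pergolide (0.79, edgeR adjusted p = 0.000852) and to 11.6 ± 1.49 after dexfenfluramine (0.72, edgeR adjusted p = 0.00147; SD, n = 5 each), with no overlap, while RIOK1 was at -0.79 and -0.74.

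In the other steps of assembly both directions also occurred. Of 15 tested genes of large subunit assembly, 9 fell and 3 rose with each drug. RSL24D1 fell with pergolide (-0.90, edgeR adjusted p = 7.61e-06) and dexfenfluramine (-0.74, edgeR adjusted p = 4.89e-05) and rose with serotonin (0.49, edgeR adjusted p = 0.0309), and EIF6, which keeps the subunits apart, rose with pergolide (0.93, edgeR adjusted p = 0.000896) and dexfenfluramine (0.99, edgeR adjusted p = 0.000438). Of 7 genes of RNA polymerase I and nucleolar chaperones, 3 fell and 1 rose with pergolide and 5 fell and 1 rose with dexfenfluramine. The polymerase subunit POLR1C rose with pergolide (0.93, edgeR adjusted p = 0.00904) and dexfenfluramine (0.95, edgeR adjusted p = 0.00713). TAF1D, a subunit of the factor that places the polymerase on its promoter, fell with pergolide (-0.73, edgeR adjusted p = 0.000277) and dexfenfluramine (-0.62, edgeR adjusted p = 0.000861; 0.09 with total counts) and rose with serotonin (0.54, edgeR adjusted p = 0.0379). Nucleolin, NCL, fell with pergolide (-0.58, edgeR adjusted p = 0.001) and dexfenfluramine (-0.64, edgeR adjusted p = 0.000395; 0.06 with total counts).

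Of 7 tested nucleases and exosome genes, 3 rose and 1 fell with pergolide and 1 rose and 2 fell with dexfenfluramine. The exosome cofactor C1D rose with pergolide (0.92, edgeR adjusted p = 0.00151) and dexfenfluramine (0.66, edgeR adjusted p = 0.0148). The helicase MTREX fell with pergolide (-0.42, edgeR adjusted p = 9.52e-05) and dexfenfluramine (-0.31, edgeR adjusted p = 0.00111), and turned to 0.02 and 0.36 with total counts. XPO1, the exporter of both subunits and the export gene that was tested, rose with pergolide (0.32, edgeR adjusted p = 0.0277) and dexfenfluramine (0.52, edgeR adjusted p = 0.000848).

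Where an assembly gene or snoRNA row is given above with an adjusted p that passed, the valves of the groups compared mostly did not overlap. Exceptions were RUVBL1, UTP6, SNORD47, SNORD2 and SNORA68 for dexfenfluramine, TSR2, POLR1C and XPO1 for pergolide, UTP4 for both and ESF1 for serotonin. Some calls did not pass in every fit when each of the 10 valves compared was removed in turn. Such fits hold fewer valves, so a lost call does not show that it rested on the valve removed. For serotonin ESF1 passed in 5 of these 10 fits, and RSL24D1, TAF1D and SNORA68 each in 3. None of these 4 passed without non-treated replicate 2, 4 or 5 or without serotonin replicate 1 or 2, and RSL24D1, TAF1D and SNORA68 did not pass without serotonin replicate 4 or 5 either. Their log2 fold changes then ranged from 0.42 to 0.60 for ESF1, 0.44 to 0.55 for RSL24D1, 0.45 to 0.61 for TAF1D and -1.46 to -1.09 for SNORA68.

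For dexfenfluramine RUVBL1 passed in 2 of the 10 fits, those without non-treated replicate 3 or dexfenfluramine replicate 1, and ranged from -0.98 to -0.59. SNORA68 for dexfenfluramine passed in 3, those without non-treated replicate 2 or 4 or dexfenfluramine replicate 1, and ranged from 0.45 to 0.81. UTP18 did not pass without non-treated replicate 1 (-0.44 for dexfenfluramine, -0.41 for pergolide), nor for pergolide without pergolide replicate 2 (-0.48) or 3 (-0.50). TSR2 for pergolide did not pass without non-treated replicate 1 (-0.62), 4 (-0.55) or 5 (-0.63) or pergolide replicate 2 (-0.60), 4 (-0.54) or 5 (-0.60). XPO1 for pergolide did not pass without non-treated replicate 1 (0.28), 4 (0.26) or 5 (0.28) or pergolide replicate 1 (0.29), 3 (0.30) or 5 (0.32). UTP4 for dexfenfluramine did not pass without dexfenfluramine replicate 3 (0.40), and SNORD47 did not without dexfenfluramine replicate 2 (-1.71) or non-treated replicate 4 (-1.79). The other calls of assembly genes and snoRNA rows given with an adjusted p passed in all 10 fits.

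**Figure D4:**
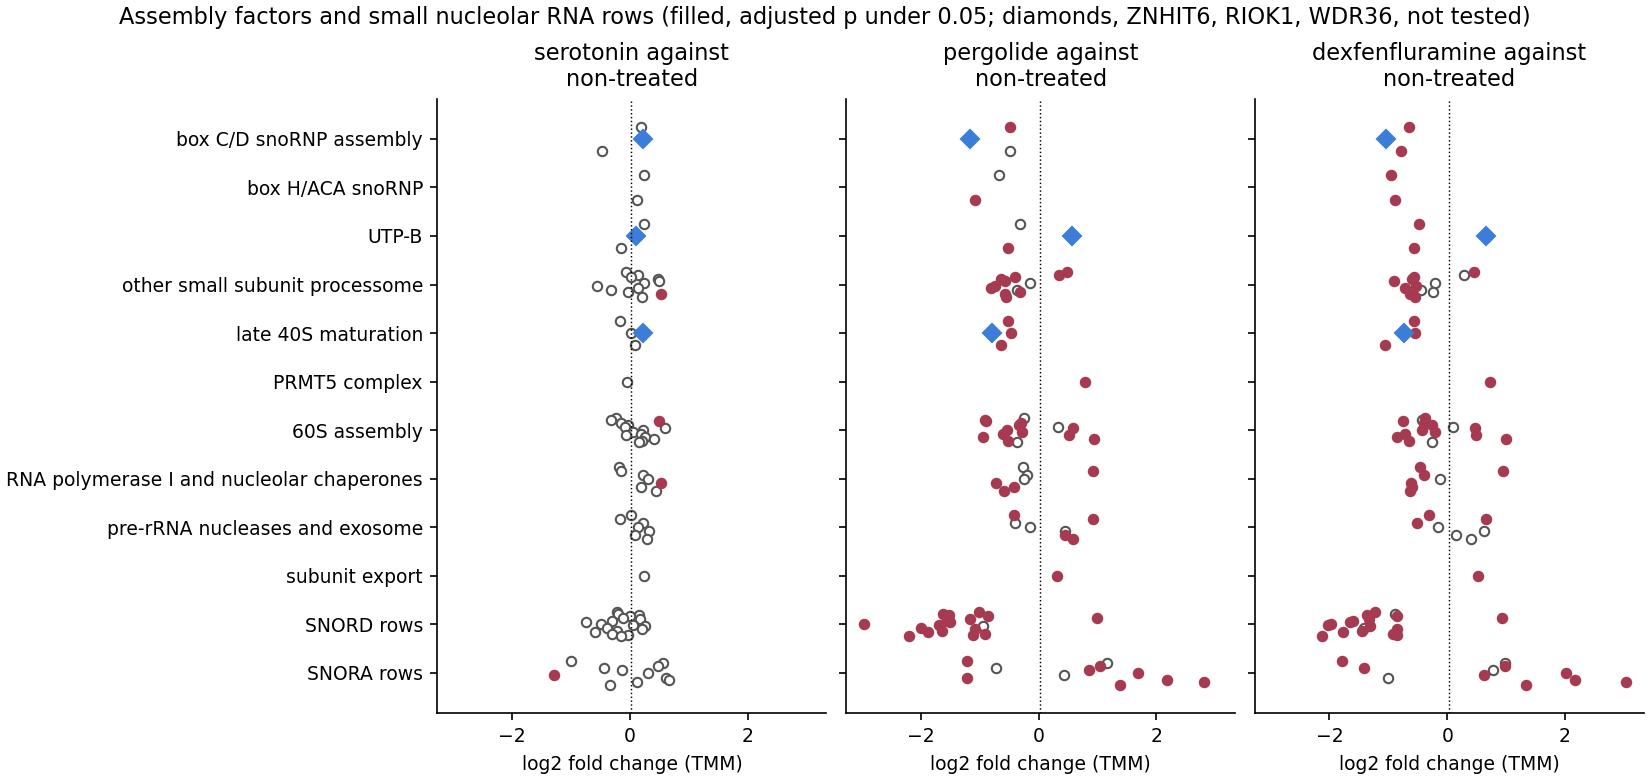
Log2 fold change (horizontal axis, TMM) of each tested ribosome assembly gene and snoRNA row by list, for each treatment against non-treated valves; filled points passed edgeR at an adjusted p under 0.05, open points did not, diamonds are ZNHIT6, RIOK1 and WDR36, and the dotted line is the median of all tested genes. For both drugs most assembly genes and 17 of 18 SNORD rows lie left of the line, although with total counts the median assembly gene turns to 0.07 and 0.24, and WDR36 lies right of it while the other UTP-B genes lie left.

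Non-treated replicate 3 and dexfenfluramine replicate 3 stood apart from their groups on the principal components of the 500 most variable genes, at -0.24 and 28.5 on the first and -12.3 and -18.5 on the next. Without both, an alternative added after the data were seen, the log2 fold change of ZNHIT6 was -1.20 for pergolide and -1.12 for dexfenfluramine, that of RIOK1 -0.78 and -0.76 and that of WDR36 0.57 and 0.65. Of the 52 list genes, 29 then fell and 10 rose with pergolide, where 2475 of all genes were called. With dexfenfluramine 29 fell and 6 rose, where 2462 were called, and with serotonin 4 rose and 1 fell, where 481 were called against 103 with all 20 valves.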

How the data were processed

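RNA of 20 tricuspid valves was depleted of ribosomal RNA by the authors, made into stranded libraries, aligned to oryCun2 with TopHat2 2.1.1 (submitters' processing notes) and counted per Ensembl gene with HTSeq; the deposited counts are integers that carry no scaling. The annotation release, strand setting and treatment of reads with several alignments are not given in the sources used here. Replicates are separate rabbits.

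Symbols were taken from the study's list of changed genes alone, which gave 1 symbol to each of 3519 IDs in the counts. The 3 genes and the gene lists were chosen with earlier results of these data known. Counts were scaled by TMM and tested in edgeR 4.0.16 (R 4.3.3; filterByExpr, glmQLFit, glmQLFTest) over all 20 valves, with Benjamini-Hochberg adjustment over the 8683 tested genes and a threshold of 0.05; log2 CPM used a prior count of 2. Correlations used 100000 permutations within groups (Python 3.11.15, numpy 2.4.6, scipy 1.17.1, pandas 2.3.3); figures were made in matplotlib 3.10.9. Named genes were the 3 genes, all tested genes of the lists that hold them and of the PRMT5 complex, the called gene of smallest p in each direction of every other list, the 5 most similar genes of each, and the most abundant marker of each marker list. Of these, only a part are named in the text. In addition, TNNT2, TAGLN, MYH11, SNORD47, SNORD2, SNORA68 and SNORA74 were singled out after their values were seen.

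Alternatives were DESeq2 1.42.0, limma-voom (limma 3.58.1), limma-voom with 4 svaseq variables (sva 3.50.0), 1 RUVr factor, DESeq2 size factors, upper-quartile normalization, library sizes without the most counted gene, all genes kept, genes with 10 or more counts in each valve, a block for the replicate number, the 2 compared groups fitted alone, and the removal of 1 valve at a time. Total counts as library sizes and the removal of both valves that stand apart were added after the data were seen. Totals between 3247091 and 5921025 counts per valve make counting error a part of the spread of the 3 genes. A test of the 3 genes between the drugs was planned, but the same valves chose the genes, and so the differences are given without a p-value. A promoter motif search was not run, as no sequence of these genes was used here.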

Additional observations from a re-analysis of the deposited data

Results flagged for a closer look

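In 56 groups of 5 valves, covering the CPM and ratios of the 3 genes, the summed markers, the share of the most counted gene and the TMM factors, a valve was looked for whose gap to its nearest neighbour is large against the range of its group. There were 2 such valves, and chance alone gives about 1 in 20 groups. ZNHIT6 in pergolide replicate 3 was at 18.5 CPM, where the other 4 pergolide valves lay between 11.6 and 13.2 CPM. The summed adipocyte markers in non-treated replicate 4 were at 70.0 CPM, where the other 4 lay between 21.9 and 33.9 CPM. No cause of either was tested.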

How the results depend on the processing

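Of 276 log2 fold changes of ZNHIT6, RIOK1 and WDR36 computed under 23 alternatives, all kept their sign and 270 moved by less than 1 SD between valves. The other 6 were those with total counts as library sizes, chosen after seeing the data: -0.70, -0.34 and 1.00 for pergolide against non-treated valves, and -0.34, -0.046 and 1.31 for dexfenfluramine. That alternative moves the median of all genes as well. With the other alternatives ZNHIT6 ran from -1.29 to -1.11 for pergolide and -1.12 to -0.98 for dexfenfluramine, RIOK1 from -0.90 to -0.70 and -0.84 to -0.64, and WDR36 from 0.48 to 0.60 and 0.56 to 0.69.

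With total counts, 0 of the 52 other assembly genes were called lower for pergolide (2 at an unadjusted p under 0.05) and 0 for dexfenfluramine (0 unadjusted). Called higher were 12 for pergolide and 15 for dexfenfluramine, where 2288 and 4983 of all tested genes were called higher. With svaseq variables 7 were called higher for pergolide and 5 for dexfenfluramine. At an unadjusted p under 0.05 in that limma-voom fit, 10 were higher and 27 lower for pergolide, and 9 and 29 for dexfenfluramine. Of all genes, 2958 and 2665 had such a p in either direction. Of all genes, dexfenfluramine called 5101 with total counts and 1508 with svaseq variables. Between the drugs 1 RUVr factor called 136 genes and DESeq2 4. The cause was not tested.

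For serotonin, 103 genes were called in the fit of all valves, against 632 with 1 RUVr factor, 234 with DESeq2, 238 with svaseq variables, 53 with DESeq2 size factors, 36 with library sizes without the most counted gene, 58 with at least 10 counts in every valve (fewer genes tested), 48 with no filter, 481 without both valves that stand apart (chosen after seeing the data), 2 with total counts and, by edgeR, 0 with only the 2 groups compared (1117 at an unadjusted p under 0.05). Of the 52 assembly genes, those called higher for serotonin numbered 6 with 1 RUVr factor, 5 with DESeq2, 7 with svaseq variables, 1 without the most counted gene, 1 with no filter, and 0 in edgeR with only the 2 groups compared or total counts (9 and 7 unadjusted). Called lower were 2 with 1 RUVr factor and 1 without both valves that stand apart. The cause was not tested.

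With 1 valve left out, the serotonin counts ran from 0 to 257 of all genes and from 0 to 6 of the assembly genes. Of all genes, edgeR called 0 without non-treated replicate 2 or 5 or serotonin replicate 1 (1183, 1255 and 1106 unadjusted), 3 without non-treated replicate 4, 4 without serotonin replicate 2, 21 and 50 without serotonin replicate 4 and 5, and 257 without non-treated replicate 3. Of the assembly genes, leaving out non-treated replicate 1 gave 6 higher, non-treated replicate 2, 4 or 5 or serotonin replicate 1 or 2 gave 0 in edgeR (11, 10, 9, 10 and 11 unadjusted), and serotonin replicate 4 or 5 gave 1. For pergolide the assembly genes called higher numbered 7 to 10, with 7 without non-treated replicate 1.

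The correlations within groups turned to 0.48 (ZNHIT6 and RIOK1), 0.51 (ZNHIT6 and WDR36) and 0.68 (RIOK1 and WDR36) with total counts, where the last passed after adjustment. With 1 valve left out they ran from -0.32 to -0.06, from -0.54 to -0.31 and from -0.40 to 0.16. Without pergolide replicate 3 the r of ZNHIT6 and WDR36 was -0.54 and passed after adjustment, and without non-treated replicate 1 that of RIOK1 and WDR36 turned to 0.16. The cause was not tested.

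The replicate block took the replicate number as a factor, although the labels do not say that numbers pair the valves. Deviations from the group mean correlated at -0.022 on average between valves of the same number, against 0.00508 between other valves, which shows no sign that the numbers pair the valves. With the replicate block, edgeR called 1 gene for serotonin, 1988 for pergolide and 2365 for dexfenfluramine, and 0 assembly genes for serotonin (9 higher and 1 lower unadjusted). The log2 fold changes were -1.16 and -1.03 for ZNHIT6, -0.78 and -0.73 for RIOK1 and 0.58 and 0.66 for WDR36.

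Depth limits the 3 genes to between 49 and 254 counts per valve, and symbols exist for a part of the genes, so most assembly genes could not be read.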
